A study of Mus musculus with 8 samples.

Results

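The genes described here are 36 members of the transforming growth factor-beta (TGF-beta) and bone morphogenetic protein (BMP) signalling pathways, out of 35498 genes in the transcript tables. They were taken as a named list of ligands, processing and latency proteins, receptors, antagonists, SMADs and direct targets. The rule itself uses no measured value, but the list was chosen with earlier results of these data known. Of the 36 genes, 34 had enough reads to be tested, among 16309 tested genes in all. The remaining pair, Nog and Gdf6, had at most 3 reads in any library.

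The libraries were bulk RNA sequencing of mouse soft-tissue sarcoma cells, 2 in each of 4 groups. All 4 groups share 1 sarcoma line on the C57BL/6 strain, made from mesenchymal stem cells that carry a p53 knockout (p53-/-) and overexpress cyclin E1 (Ccne1+). The sgSCR group carried a control guide RNA and the sgMif group a guide against Mif, both with the Cas9 nuclease; the shSCR group carried a control hairpin RNA and the shMif group a hairpin against Mif. Per the labels, all tumours were grown under the skin on polyurethane scaffolds in secondary recipient mice, digested, and sorted on a fluorescent marker before RNA extraction. The labels are not uniform on Cas9, which 1 text gives to all groups and another to the guide groups. The sources used here do not give the age of the mice, the number of tumours behind a library or the number of clones behind a group. Nor do the labels tie the 2 libraries of a group to separate animals, and p-values therefore reflect only how far these libraries differ, which can be technical.

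In this pathway, a dimeric ligand joins type I and type II receptor kinases at the cell surface, and the type I receptor phosphorylates receptor SMADs, which enter the nucleus with Smad4. TGF-beta and activin ligands mainly use Smad2 and Smad3, and BMP ligands mainly use Smad1 and its relatives. TGF-beta is secreted in a latent form held by latent TGF-beta binding proteins, BMPs are held back by secreted antagonists such as gremlin and noggin, and the Id genes are classic direct targets of BMP signalling. Mesenchymal cells, from which this tumour line was derived, both secrete these ligands and respond to them.

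The proximal promoters of 3 of the genes on which the results turn are shown here, since their levels stood apart between groups and they had an entry in the promoter table. Each sequence is the 250 bases upstream of the RefSeq gene start on build GRCm38.p6, read 5′ to 3′ on the strand of the gene. Capitals mark the SMAD-binding element CAGAC, on either strand (GTCTG on the other), and the GC-rich SMAD motif GGCGCC, which is its own reverse complement; the motifs share no bases where both are marked.

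Grem1, chr2:113758649-113758898, minus strand: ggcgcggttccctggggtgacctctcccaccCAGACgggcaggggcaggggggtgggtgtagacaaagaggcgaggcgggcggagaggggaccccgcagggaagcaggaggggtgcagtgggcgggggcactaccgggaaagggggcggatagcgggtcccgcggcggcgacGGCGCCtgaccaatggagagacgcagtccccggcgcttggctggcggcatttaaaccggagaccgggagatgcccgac

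Bmp4, chr14:46390670-46390919, minus strand: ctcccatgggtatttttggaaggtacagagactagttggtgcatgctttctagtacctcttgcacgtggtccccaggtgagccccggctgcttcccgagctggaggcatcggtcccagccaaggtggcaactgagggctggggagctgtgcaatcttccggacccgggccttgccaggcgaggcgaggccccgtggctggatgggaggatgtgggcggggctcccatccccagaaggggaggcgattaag

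Smad3, chr9:63757995-63758244, minus strand: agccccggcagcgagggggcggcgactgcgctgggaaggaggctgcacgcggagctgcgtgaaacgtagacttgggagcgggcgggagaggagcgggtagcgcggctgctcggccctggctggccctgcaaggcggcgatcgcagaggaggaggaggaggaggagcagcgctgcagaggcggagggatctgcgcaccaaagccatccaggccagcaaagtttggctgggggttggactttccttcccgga

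The Grem1 window held 1 match to each motif, and the windows of Bmp4 and Smad3 held 0. CAGAC or GTCTG was present in 42.2% of all 32851 promoter windows of this length and GGCGCC in 9.59%. The table matched 24 of the 36 pathway genes with 26 windows, of which 13 held CAGAC or GTCTG and 6 held GGCGCC. A match describes these letters only, and their absence from a window says nothing about binding elsewhere. The window of Id3 is not shown because all 250 of its bases lie in an annotated Id3 exon.

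Library totals ran from 19042235 to 51819308 estimated reads, so that 3 reads, the limit that a count of 0 allows, corresponded to 0.0605 to 0.154 CPM (counts-per-million units) per library. Such limits cover counting error only. Mif, the gene named by the guide and the hairpin, had 377 and 454 CPM in the sgSCR libraries, 221 and 222 in the sgMif libraries, 170 and 375 in shSCR, and 277 and 222 in shMif. It was lower in both sgMif libraries than in both sgSCR libraries, with a log2 fold change of -0.91 ± 0.32 (standard error) and an edgeR adjusted p of 0.215, and the libraries labelled shMif lay within the shSCR range (-0.13 ± 0.32, adjusted p = 0.925). Summed markers of mesenchymal cells stood at 16809 to 37299 CPM, against 122 to 478 for macrophages and 48.3 to 289 for endothelium. The libraries also fell into a class with 1323 to 2400 CPM of olfactory receptor transcripts (both sgSCR libraries and the first of each other group) and a class with 389 to 576. In bulk samples, fewer cells of a type and less RNA per cell cannot be told apart.

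Among the ligands, transcripts of Tgfb1 and the activin subunit Inhba were plentiful in these tumour cells, and those of Bmp2 and Bmp6 were few. On the length-normalised scale of TPM (transcripts-per-million units), levels of the members tested ran from near 0 for Bmp2 to 532 to 670 for Tgfbi, an extracellular matrix protein induced by TGF-beta. Grem1 varied most among members read in every library, 31.7-fold in CPM from the lowest library to the highest. Tgfbi varied least, 1.25-fold, followed by Smad2 at 1.26-fold, Smad1 at 1.32-fold and the type II receptor Bmpr2 at 1.37-fold.

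**Figure D1:**
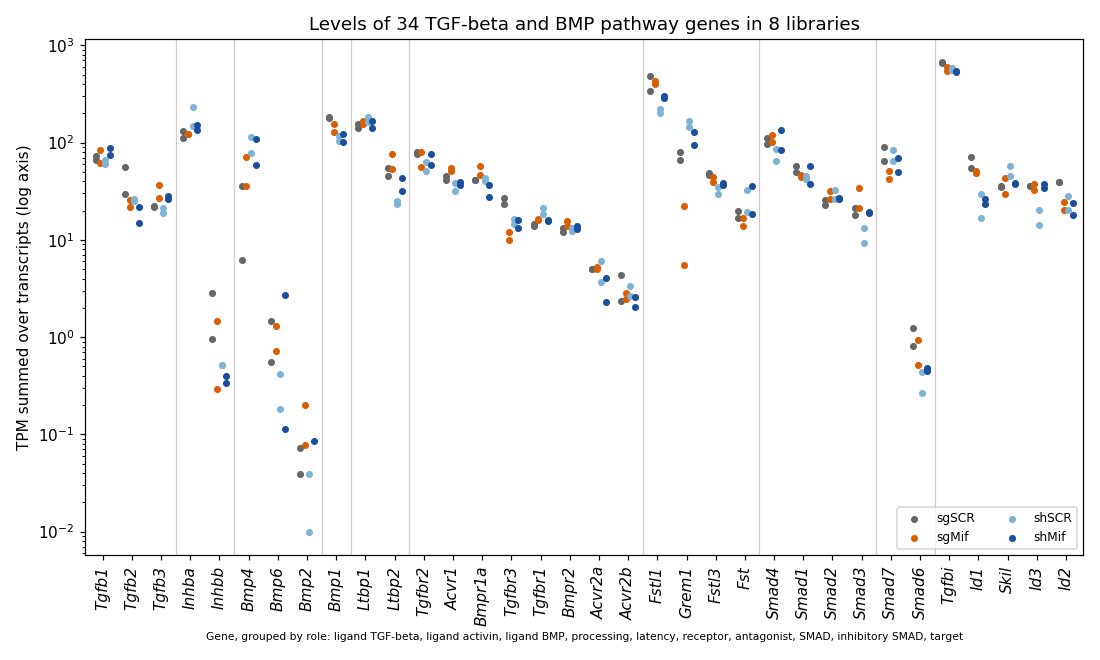
TPM of each tested pathway gene in the 8 libraries, on a log axis, with genes ordered by role and points coloured by group; a library at 0 (Bmp2 in shMif 1) is not drawn. Tgfbi is the most abundant gene at 532 to 670 TPM, and Grem1 has points spread from 5.47 to 169 TPM.

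The sgMif libraries, labelled Mif knockout, were compared with sgSCR. The TGF-beta co-receptor Tgfbr3 was lower in sgMif and was the 1 member of 34 that passed the threshold, while 0 rose. The threshold was a Benjamini-Hochberg adjusted p under 0.05 in edgeR's quasi-likelihood test. Over all genes tested, 0.987% were called in this comparison (0.368% higher and 0.619% lower), so a count of 1 is near the background. The 2 libraries of each arm did not overlap for 19 of 34 members (10 higher and 9 lower in sgMif), where 51.3% of all genes tested did so (27.1% higher and 24.2% lower). An unadjusted p under 0.05 was reached by 9 members, beside 16.6% of all genes. The median log2 fold change of the members was -0.02, beside -0.01 for all genes.

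In the libraries labelled shMif, compared with shSCR, 0 of 34 members passed the threshold in edgeR, where 0.0184% of all genes did. An unadjusted p under 0.05 was reached by 1 member, Id3, where 9.26% of all genes reached it, and DESeq2 called the same gene and no other member. The arms did not overlap for 18 of 34 members (7 higher and 11 lower), where 41.7% of all genes did so (19.4% higher and 22.3% lower), and the median was 0.06 beside 0.03 for all genes. For 10 members the arms stood apart in both systems. Of these, Tgfb3 and Ltbp2 were higher in both, Tgfb2, Grem1 and Tgfbi lower in both, and Bmp4, Acvr2a, Bmpr1a, Bmp6 and Id3 opposite. Over all genes, 51.3% stood apart in the guide system and 41.7% in the hairpin system. The share apart in both was not counted, so the 10 cannot be set against a background.

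The wider contrast lay between the controls. In shSCR against sgSCR, the BMP ligand Bmp4 rose, and the TGF-beta transducer Smad3 and the target Id3 fell, which is 3 of 34 members, or 8.82%, against 4.02% of all genes tested (2.23% higher and 1.79% lower). An unadjusted p under 0.05 was reached by 19 members, where 22.9% of all genes reached it. The control arms did not overlap for 26 of 34 members (10 higher and 16 lower in shSCR), where 54.6% of all genes did so (28.4% higher and 26.3% lower). The members' median was -0.31, beside -0.04 for all genes, and 21 of 34 were lower in shSCR. The agent (guide or hairpin) and anything else that differed between the 2 systems cannot be told apart here. This contrast and that of sgMif share the sgSCR libraries, so a low or high sgSCR value enters both.

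**Figure D2:**
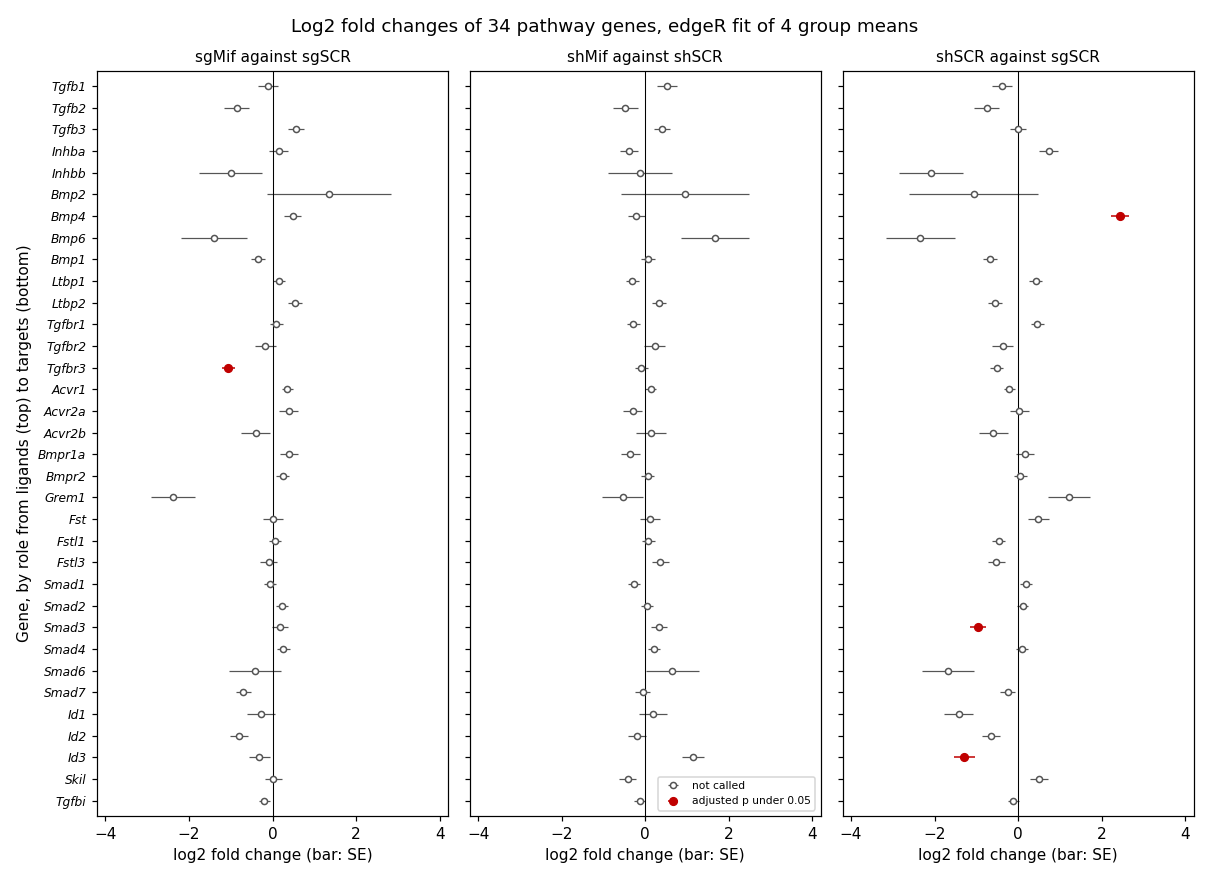
Log2 fold change of each tested member, with its standard error from edgeR as the bar, in sgMif against sgSCR, shMif against shSCR and shSCR against sgSCR; filled points pass an adjusted p of 0.05. Tgfbr3 is filled in the first comparison, Bmp4, Smad3 and Id3 in the control contrast, and none in shMif against shSCR.

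Among TGF-beta ligands, Tgfb1 was the most abundant per length. Its level was 73.4 and 67.0 TPM in sgSCR, 83.5 and 61.3 in sgMif, 66.9 and 60.7 in shSCR, and 74.5 and 88.1 in shMif. The guide groups overlapped in TPM, the shMif libraries were above the shSCR libraries, and in CPM the first shSCR library was lowest at 67.8 beside 103 to 137 in the other 7. Without the second shSCR library, which left that low library as the only hairpin control, Tgfb1 passed in shMif against shSCR at 0.97 (adjusted p = 0.0242), compared with 0.52 ± 0.24 (adjusted p = 0.552) over all libraries. Tgfb2 was highest in the second sgSCR library at 219 CPM and lay between 58.9 and 112 in the other 7. In sgMif its log2 fold change was -0.85 ± 0.30 (edgeR adjusted p = 0.210; DESeq2 -0.87, adjusted p = 0.0357), and the estimate in shMif was -0.48 ± 0.30 (adjusted p = 0.644). Tgfb3 had estimates of 0.56 ± 0.19 in sgMif and 0.40 ± 0.19 in shMif, neither past the threshold (adjusted p = 0.188 and 0.557).

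Activin subunits, which form ligands that signal through Smad2 and Smad3, were represented mainly by Inhba. Inhba stood at 405 and 490 CPM in the sgSCR libraries, 446 and 545 in sgMif, 908 and 581 in shSCR, and 574 and 563 in shMif. All 4 hairpin libraries exceeded all 4 guide libraries, and the first shSCR library was far above the rest. The difference between the controls was 0.73 ± 0.22 and did not pass in edgeR (adjusted p = 0.102), while DESeq2 gave 0.72 (adjusted p = 0.0140). Without the second shSCR library, which left the high first library as the only hairpin control, the difference was 1.02 in edgeR. Inhbb was scarce, at 13.5 and 5.13 CPM in sgSCR and at most 7.85 in each remaining library. Its control difference was -2.09 ± 0.77 in edgeR (adjusted p = 0.158) and -2.11 in DESeq2 (adjusted p = 0.0296).

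Bmp4, a BMP ligand with broad roles in mesenchymal patterning, carried the largest change among the 4 member calls of the edgeR fit over all libraries. Its gene lies at chr14:46383520-46390669 on the minus strand of mm10 (ENSMUSG00000021835). Levels were 7.42 and 8.72 CPM in the sgSCR libraries, 13.3 and 9.31 in sgMif, 42.1 and 45.7 in shSCR, and 38.7 and 37.0 in shMif. Every hairpin library was thus above every guide library, with a gap from 13.3 to 37.0 CPM. In shSCR against sgSCR, Bmp4 rose 5.45-fold, a log2 fold change of 2.45 ± 0.21 (edgeR adjusted p = 0.00228), and leaving out any 1 library kept it between 2.33 and 2.58. The effect in sgMif was 0.48 ± 0.20 and in shMif -0.21 ± 0.20 (adjusted p = 0.291 and 0.756), and the difference between those effects did not pass (-0.70 ± 0.28, adjusted p = 0.292). When counts were rebuilt from TPM with transcript length averaged over libraries, the control difference was 2.31 with an adjusted p of 0.148. Bmp4 overlaps Gm15217 on the opposite strand, and the strandedness of the libraries is not given, so reads of the pair cannot be told apart.

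The TPM of Bmp4 rested on a short transcript with few reads. Bmp4-204, a retained-intron transcript of 258 bases, took 0 to 9.01% of the gene's reads but 0 to 86.3% of its TPM. Its reads were 0 and 11.5 in sgSCR, 26.2 and 26.0 in sgMif, 37.8 and 82.9 in shSCR, and 11 and 61.0 in shMif. The gene's TPM, 6.15 to 113, thus came in part from few reads over a short length. The main coding transcript, Bmp4-202, stood at 5.90 and 6.50 TPM in sgSCR, 7.82 and 6.12 in sgMif, 20.2 and 28.3 in shSCR, and 25.4 and 21.8 in shMif. On this transcript the guide and hairpin libraries again did not overlap. A second coding transcript, Bmp4-201, had 15.5 and 2.77 estimated reads in sgSCR, 53.3 and 46.8 in sgMif, 564 and 343 in shSCR, and 131 and 233 in shMif. Splits among transcripts that share exons are Salmon's estimates and are uncertain.

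**Figure D3:**
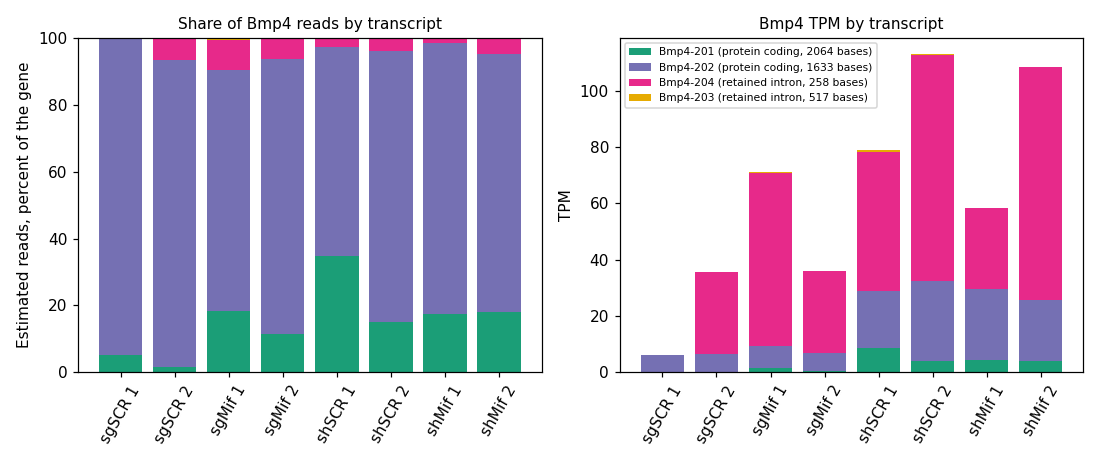
Bmp4 by transcript in the 8 libraries, as a percent of the gene's estimated reads (left) and as TPM (right), stacked by transcript. The coding transcripts hold 90.3 to 100% of the reads, while the 258-base Bmp4-204 holds up to 86.3% of the TPM.

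The other BMP ligands were near the limit of detection. Bmp2 had 0 to 15 reads per library (5 and 5 in sgSCR, 15 and 12 in sgMif, 1 and 7 in shSCR, 0 and 11 in shMif). Bmp6 had 41 and 25 reads in sgSCR, 12 and 14 in sgMif, 11 and 8 in shSCR, and 19 and 16 in shMif. In CPM, Bmp6 was lower in both sgMif libraries (0.547 and 0.315) than in sgSCR (1.03 and 1.25), and the estimate of -1.41 ± 0.80 did not pass (adjusted p = 0.419). In shMif it was higher (0.978 and 0.455 CPM beside 0.285 and 0.161 in shSCR; 1.66 ± 0.81, adjusted p = 0.573), and the difference of the effects was 3.07 ± 1.14 (adjusted p = 0.261). Bmp6 also overlaps Txndc5 on the opposite strand. Gdf6 had 0 to 3 reads and was not tested.

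Bmp1, the procollagen proteinase that also releases BMPs and TGF-beta from their binding proteins, stood at 182 and 179 TPM in sgSCR, 154 and 130 in sgMif, 105 and 118 in shSCR, and 102 and 124 in shMif. Both sgSCR libraries were the highest of the 8. The control difference was -0.66 ± 0.17 (adjusted p = 0.0703), and DESeq2 gave -0.68 with an adjusted p of 0.00229. Without the second shSCR library, which left the lower first library as the only hairpin control, edgeR gave -0.79. Annotated coding transcripts held 51.3 to 67.7% of Bmp1 reads.

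Ltbp1, the main binding protein of latent TGF-beta in this list, was at 143 and 157 TPM in sgSCR, 166 and 157 in sgMif, 184 and 165 in shSCR, and 167 and 140 in shMif. In CPM the guide arms overlapped, and the shSCR libraries (781 and 668) exceeded the shMif libraries (598 and 571; -0.31 ± 0.15, adjusted p = 0.566). Its relative Ltbp2, a matrix protein of elastic fibres, was higher in both Mif-labelled groups without passing: 0.53 ± 0.17 in sgMif (adjusted p = 0.168) and 0.33 ± 0.17 in shMif (adjusted p = 0.584). In CPM, Ltbp2 was 196 and 206 in sgSCR, 323 and 259 in sgMif, 121 and 154 in shSCR, and 181 and 164 in shMif. The control difference of Ltbp2 was -0.55 ± 0.17 in edgeR (adjusted p = 0.103) and -0.57 in DESeq2 (adjusted p = 0.0229). Without the second shSCR library, which left the lower first library as the only hairpin control, the difference was -0.73 in edgeR.

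Tgfbr3, betaglycan, is a co-receptor that presents TGF-beta2 to the signalling receptors and also binds inhibin and BMPs. The gene lies at chr5:107106570-107289629 on the minus strand of mm10 (ENSMUSG00000029287). It was measured at 117 and 111 CPM in the sgSCR libraries, 48.6 and 60.7 in sgMif, 83.6 and 75.7 in shSCR, and 79.3 and 69.2 in shMif. Both sgMif libraries were the lowest of the 8 and both sgSCR libraries the highest, with the hairpin groups between them and overlapping. Tgfbr3 fell 2.08-fold in sgMif, a log2 fold change of -1.06 ± 0.16 (edgeR adjusted p = 0.0333). In shMif the estimate was -0.10 ± 0.16 (adjusted p = 0.866), and the difference between the effects was 0.95 ± 0.22 (edgeR adjusted p = 0.162; DESeq2 1.00, adjusted p = 0.00654). Between the controls, Tgfbr3 was at -0.51 ± 0.16 (edgeR adjusted p = 0.102; DESeq2 -0.53, adjusted p = 0.0301).

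The Tgfbr3 call in sgMif was lost without the first sgSCR library (adjusted p = 0.155), the second sgSCR library (0.183), the first sgMif library (0.126), the second sgMif library (0.133), the first shMif library (0.0573) or the second shMif library (0.0624). The estimate then lay between -0.91 and -1.23. With length-scaled counts it was -1.12 (adjusted p = 0.0570), and among libraries of the high olfactory class, where sgSCR alone kept both its libraries, -1.23. Skin fibroblast markers moved alongside: the summed level of the 10 genes was 1883 to 2140 CPM in sgSCR, 868 to 963 in sgMif and 1468 to 1530 in the hairpin groups, with 1 of the 10, Dcn, falling in sgMif. Dcn stood at 307 and 192 CPM in sgMif, and the other 9 genes summed to 902 and 856 CPM in the sgSCR libraries and 656 and 676 in sgMif. Macrophage markers stood at 226 to 477 CPM in sgSCR and 122 to 157 in sgMif, with 2 of 15, Cd163 and Mrc1, falling. Cd163 went from 103 and 24.9 CPM in sgSCR to 0 and 0 in sgMif, and Mrc1 from 107 and 33.9 to 2.01 and 5.59. Lyz2 (38.2 and 30.3 CPM in sgSCR, 64.5 and 30.6 in sgMif), Csf1r, Ptprc and Ly6c2 overlapped. The other macrophage genes were lower in both sgMif libraries. The part of these markers in the result was not tested. Tgfbr3 shares exon sequence on the same strand with Gm43422, so its reads are uncertain to that extent.

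The signalling receptors moved little. Tgfbr2, the type II receptor of TGF-beta and the most abundant receptor per length, stood at 80.1 and 76.7 TPM in sgSCR, 55.6 and 80.9 in sgMif, 50.7 and 63.7 in shSCR, and 58.9 and 76.3 in shMif. Those ranges overlapped in both systems, and the sgMif libraries stood further apart than the means of any groups. The type I receptor Tgfbr1 ranged from 49.7 to 72.8 CPM, and the hairpin controls, at 72.8 and 68.6, were the highest libraries (0.46 ± 0.15, adjusted p = 0.127). BMP and activin receptors Acvr1, Bmpr1a, Acvr2a and Bmpr2 were each higher in both sgMif libraries than in sgSCR, by 0.25 to 0.39, and none passed (adjusted p = 0.258 to 0.455). The activin receptor Acvr2b was scarce per length, at 2.06 to 4.37 TPM.

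Grem1, gremlin 1, is a secreted antagonist of BMP2 and BMP4, and showed the widest range of all members. The gene lies at chr2:113746164-113758646 on the minus strand of mm10 (ENSMUSG00000074934). It stood at 202 and 244 CPM in the sgSCR libraries, 68.5 and 17.7 in sgMif, 561 and 481 in shSCR, and 400 and 316 in shMif. All 4 groups were apart from one another in the order sgMif, sgSCR, shMif, shSCR, and the sgMif libraries differed from each other by a larger ratio than those of any other group. The log2 fold change in sgMif was -2.38 ± 0.52, a 5.20-fold lower level, and did not pass in edgeR (adjusted p = 0.0773), whereas DESeq2 gave -2.39 with an adjusted p of 0.00507. In shMif it was -0.54 ± 0.49 (adjusted p = 0.752), and between the controls 1.22 ± 0.50 (adjusted p = 0.194). The difference between the Mif effects was 1.84 ± 0.70 (adjusted p = 0.271).

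The size of the Grem1 difference depended on the sgMif libraries. Without the first it was -3.65 (edgeR adjusted p = 0.0388), and without the second it was -1.70 (adjusted p = 0.133). The high olfactory class, which holds the first sgMif library and not the second, gave -1.70, with sgSCR as the only group that kept both libraries. The summed skin fibroblast and macrophage markers given for Tgfbr3 also apply here, since both sums were lower in sgMif. The summed pericyte and smooth muscle markers ran the other way, at 391 to 426 CPM in sgSCR and 842 to 1216 in sgMif, with 1 of the 10 genes, Acta2, rising. Most of that sum was Acta2 (106 and 110 CPM in sgSCR, 659 and 435 in sgMif) and Cspg4 (234 and 270 in sgSCR, 464 and 350 in sgMif). Mcam and Cnn1 were also higher in both sgMif libraries, Abcc9 and Kcnj8 were lower in both, and the other genes overlapped. The part of these marker sets in the Grem1 values was not tested.

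The remaining antagonists were steadier. Fstl1, a secreted follistatin-like protein and the most abundant antagonist per length, was at 343 and 485 TPM in sgSCR, 427 and 398 in sgMif, 200 and 221 in shSCR, and 290 and 303 in shMif. A retained-intron transcript of 343 bases, Fstl1-205, held 0 to 45.1% of that TPM on at most 2.45% of the reads. The main coding transcript, Fstl1-201, stood at 298 and 263 TPM in sgSCR and 277 and 293 in sgMif. In the hairpin groups it stood at 199 and 182 TPM in shSCR and 186 and 219 in shMif, which overlapped. Fstl1 was lower in all 4 hairpin libraries than in all 4 guide libraries. Its control difference was -0.46 ± 0.15 in edgeR (adjusted p = 0.128) and -0.48 in DESeq2 (adjusted p = 0.0242). Follistatin (Fst), which sequesters activins, ranged from 24.6 to 48.9 CPM. Fstl3 was at 38.1 CPM in the first shSCR library and 58.6 to 74.3 in the other 7; without the second shSCR library it passed in shMif against shSCR (0.71, adjusted p = 0.0496) and in shSCR against sgSCR (-0.87, adjusted p = 0.0160), beside 0.36 and -0.53 over all libraries. That first shSCR library also held the lowest share of Fstl3 reads on the coding transcript, 38.4%, beside a highest share of 99.1%. Nog, noggin, had 3 reads in the second sgMif library and 0 in the other 7.

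**Figure D4:**
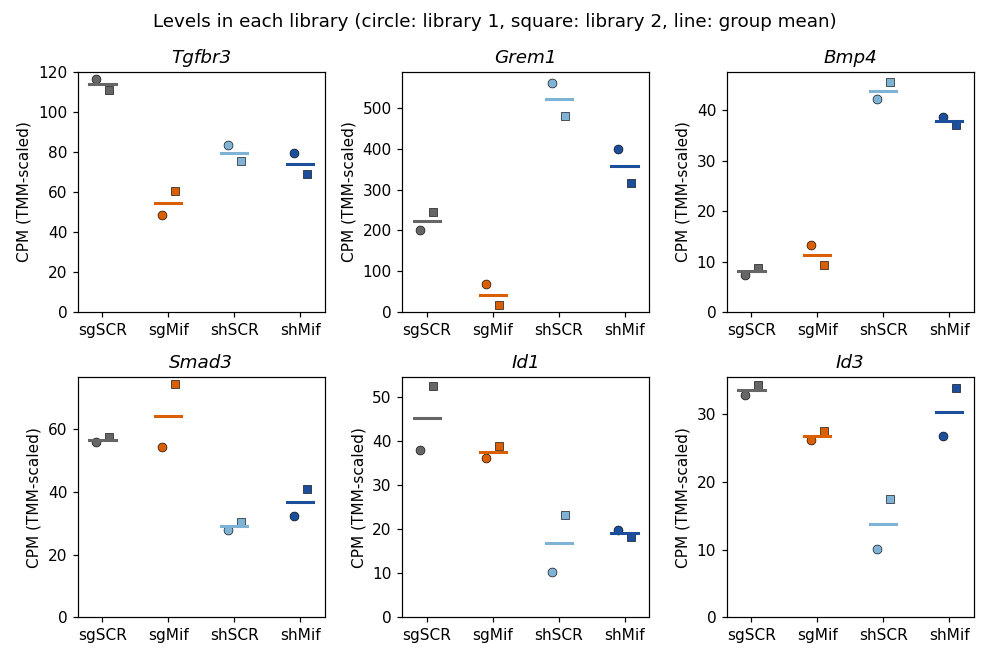
CPM of the genes with the clearest differences, by group, each point 1 library (circle, library 1; square, library 2), the line the group mean, on linear axes from 0. Bmp4 is at 37.0 to 45.7 in the hairpin libraries and 7.42 to 13.3 in the guide libraries, and the 4 groups of Grem1 do not overlap.

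Among SMADs, Smad3 was the member that moved. Smad3 transmits TGF-beta and activin signals; it lies at chr9:63646767-63757994 on the minus strand of mm10 (ENSMUSG00000032402). Its level was 55.7 and 57.4 CPM in the sgSCR libraries, 54.2 and 74.2 in sgMif, 27.7 and 30.4 in shSCR, and 32.3 and 41.0 in shMif. The 4 hairpin libraries all lay below the 4 guide libraries. Smad3 fell 1.95-fold in shSCR against sgSCR, a log2 fold change of -0.96 ± 0.19 (edgeR adjusted p = 0.0382). The call was lost without the first sgSCR (adjusted p = 0.157), second sgSCR (0.177), first shSCR (0.134), first shMif (0.0592) or second shMif library (0.0611), with estimates between -0.90 and -0.98. It was also lost when the 4 control libraries were fitted alone (adjusted p = 0.0679) and with length-scaled counts, where it was -0.67 (adjusted p = 0.233). Neither Mif comparison passed for Smad3 (0.18 ± 0.19 in sgMif and 0.34 ± 0.19 in shMif).

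Smad4, the common partner of receptor SMADs, was the most abundant SMAD by TPM, at 97.6 and 113 in sgSCR, 119 and 102 in sgMif, 64.1 and 86.1 in shSCR, and 135 and 84.1 in shMif. Noncoding transcripts made up part of these values: coding transcripts held 26.4 to 70.8% of Smad4 TPM but 76.2 to 96.9% of its reads. In CPM, Smad4 ran only from 109 to 150. Smad1, the BMP transducer, and Smad2 spanned 71.9 to 94.9 and 43.8 to 55.2 CPM. None of the 3 passed in any of the 5 comparisons.

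Smad7 and Smad6 are inhibitory SMADs that are themselves induced by the pathway. Smad7 stood at 65.2 and 91.2 TPM in sgSCR, 42.1 and 51.1 in sgMif, 84.1 and 64.9 in shSCR, and 69.8 and 50.5 in shMif. In TPM the second shMif library lay among the sgMif libraries, whereas in CPM both sgMif libraries were the lowest, at 109 and 111 beside 135 to 211 in the other 6 libraries. A noncoding transcript of 392 bases, Smad7-203, held 37.9 to 53.6% of Smad7 TPM but 1.92 to 3.09% of its reads. On the main coding transcript, Smad7-201, both sgMif libraries were the lowest, at 23.0 and 22.4 TPM beside 26.5 to 43.9 in the other 6. The log2 fold change of the gene in sgMif was -0.70 ± 0.18 and did not pass in edgeR (adjusted p = 0.107), while DESeq2 gave -0.72 with an adjusted p of 0.00653. Smad6 was scarce, at 0.544 to 4.49 CPM.

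The Id genes, helix-loop-helix inhibitors of differentiation that BMP signalling induces, include the third gene called between the controls, Id3, whereas Id1 and Id2 did not pass. Id3 lies at chr4:136143497-136145755 on the plus strand of mm10 (ENSMUSG00000007872). It was at 32.7 and 34.2 CPM in the sgSCR libraries, 26.1 and 27.4 in sgMif, 10.03 and 17.4 in shSCR, and 26.7 and 33.8 in shMif. The 2 shSCR libraries were the lowest of the 8, and the shMif libraries lay within the range of the guide libraries. Id3 fell 2.44-fold in shSCR against sgSCR, a log2 fold change of -1.29 ± 0.26 (edgeR adjusted p = 0.0382). In shMif it was 1.14 ± 0.26 above shSCR (edgeR adjusted p = 0.407; DESeq2 1.16, adjusted p = 0.00620), and in sgMif -0.32 ± 0.25 (adjusted p = 0.559). The difference between those effects was 1.46 ± 0.36 (edgeR adjusted p = 0.163; DESeq2 1.504, adjusted p = 0.00775).

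The control call for Id3 passed without the second shSCR library and was lost without any 1 of the other 7: the first sgSCR (adjusted p = 0.150), second sgSCR (0.170), first sgMif (0.0596), second sgMif (0.0619), first shSCR (0.0927), first shMif (0.0638) or second shMif library (0.0667). The estimate was then -0.94 to -1.32. It was also lost with the 4 control libraries alone (adjusted p = 0.110) and with length-scaled counts (-0.94, adjusted p = 0.0844). Without the second shSCR library, shMif against shSCR gave 1.59 (adjusted p = 0.0147) and the difference between effects 1.91 (adjusted p = 0.0247). The first shSCR library was the lowest for 10 of the 34 members, Id3 and Id1 among them, and the highest for 5. That is 15 of 34 members at an extreme in that library, beside 40.8% of all genes.

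Id1 stood at 37.9 and 52.5 CPM in the sgSCR libraries, 36.2 and 38.9 in sgMif, 10.4 and 23.2 in shSCR, and 19.9 and 18.3 in shMif. All 4 hairpin libraries were below all 4 guide libraries, and shMif stayed with shSCR, unlike for Id3. The control difference of -1.42 ± 0.34 missed the threshold in edgeR (adjusted p = 0.0598) and passed in DESeq2 (-1.44, adjusted p = 0.000512). Without the second shSCR library it was -2.11 (edgeR adjusted p = 0.00532), and without the first it was -0.96 (adjusted p = 0.112). Id2 was lower in both sgMif libraries, at 16.3 and 19.8 CPM beside 32.6 and 30.6 in sgSCR, with -0.81 ± 0.22 (edgeR adjusted p = 0.126; DESeq2 -0.83, adjusted p = 0.0304), and its control difference was -0.65 ± 0.22 (adjusted p = 0.133). Endothelial markers, which can accompany Id1 and Id3, summed to 277 and 289 CPM in the sgSCR libraries, 211 and 48.3 in sgMif, 211 and 49.9 in shSCR, and 176 and 68.8 in shMif. Pecam1 was most of that sum in every library but the second shSCR library, where it stood at 20.8 CPM. The other 11 endothelial genes were lowest in the first shSCR library, at 15.8 CPM, where Id3 was also lowest. In the second shSCR library, next lowest in Id3, those 11 genes stood at 29.2 CPM. They were highest in the first sgMif library, at 99.96 CPM, although Id1 and Id3 there were the lowest of the guide libraries. The remaining libraries ran from 22.1 to 31.8 CPM. The part of endothelial markers in the Id values was not tested.

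Of the targets of the TGF-beta arm, Tgfbi was at 670 and 664 TPM in sgSCR, 547 and 596 in sgMif, 557 and 588 in shSCR, and 532 and 542 in shMif. The sgSCR libraries were the highest and the other groups close together, with estimates of -0.19 ± 0.13 in sgMif, -0.13 ± 0.13 in shMif and -0.11 ± 0.13 between controls, none past the threshold. One nonsense-mediated-decay transcript, Tgfbi-204, held 2.43% of the gene's reads in the first shSCR library and up to 27.9% elsewhere. Skil, a SMAD corepressor that the pathway induces, stood at 131 and 136 CPM in the sgSCR libraries, 105 and 166 in sgMif, 204 and 174 in shSCR, and 137 and 146 in shMif, with a control difference of 0.50 ± 0.21 (adjusted p = 0.199). Its transcript Skil-202 had 1612 and 1066 estimated reads in shSCR and at most 453 elsewhere.

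The direct test of whether the Mif effect differed between systems passed for 0 of 34 members in edgeR, where 0.092% of all genes did. An unadjusted p under 0.05 was reached by 7 members and by 15.8% of all genes, and DESeq2 called 2, Tgfbr3 and Id3. A joint estimate of the Mif label over both systems gave 0 of 34, where 0% of all genes passed, with 7 members and 8.01% of all genes at an unadjusted p under 0.05. DESeq2 called 1 member jointly, Tgfb3, at 0.48 (adjusted p = 0.0491). The edgeR estimate for Tgfb3 was 0.48 ± 0.14 (adjusted p = 0.359).

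A wider list of 92 other pathway genes, covering further ligands, latency and activation proteins, receptors, antagonists, SMAD regulators and targets, had 72 genes tested. In sgMif against sgSCR, 0 of 72 passed in edgeR and 14 had an unadjusted p under 0.05, beside 0.987% and 16.6% of all genes. DESeq2 called 7 of the 64 that had an adjusted p, beside 990 of 16309 genes entered. The smallest p-values belonged to Acvr1b, the activin type I receptor, at -0.62 ± 0.15 (adjusted p = 0.0971), and Ccn2, a matricellular target of TGF-beta, at 1.19 ± 0.30 (adjusted p = 0.105). Acvr1b was at 40.2 and 36.6 CPM in the sgSCR libraries and 26.0 and 24.1 in sgMif, without overlap. The arms stood apart for 40 of 72 genes, or 55.6%, beside 51.3% of all genes, and the median was -0.03.

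For the libraries labelled shMif, 0 of the 72 passed in edgeR and 11 had an unadjusted p under 0.05, beside 0.0184% and 9.26% of all genes. DESeq2 called 3 of the 59 that had an adjusted p, beside 175 of 16309 genes entered. Col1a1, type I collagen, was at 1.36 ± 0.30 (adjusted p = 0.407), with 1978 and 3586 CPM in shSCR and 5687 and 8586 in shMif. Nbl1, a secreted BMP antagonist of the DAN family, was at 0.90 ± 0.26 (adjusted p = 0.455). The median of the 72 was 0.22, beside 0.03 for all genes. For the difference of effects edgeR called 0, with 14 at an unadjusted p under 0.05 (15.8% of all genes). DESeq2 called 2 of the 62 that had an adjusted p, beside 654 of 16309 genes entered. Nbl1 (1.40 ± 0.36, adjusted p = 0.169) and the integrin Itgav, which helps activate latent TGF-beta (-0.69 ± 0.20, adjusted p = 0.194), had the smallest p in edgeR. The joint estimate gave 0 in edgeR, with 8 at an unadjusted p under 0.05 (8.01% of all genes). These were led by Acvr1b (-0.47 ± 0.12, adjusted p = 0.293) and the BMP co-receptor Rgmb (-0.72 ± 0.19, adjusted p = 0.317). DESeq2 called 3 of the 54 that had an adjusted p, beside 280 of 16309 genes entered.

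Between the controls, 2 of the 72 passed in edgeR, which is 2.78% and below the 4.02% of all genes. DESeq2 called 15 of the 63 that had an adjusted p, beside 1953 of 16309 genes entered. That is a larger share than over all genes, unlike in edgeR. Twsg1, a secreted modulator of BMP availability, stood at 156 and 162 CPM in sgSCR and 233 and 247 in shSCR, and rose by 0.59 ± 0.12 (edgeR adjusted p = 0.0368). Nbl1 stood at 57.6 and 67.1 CPM in sgSCR and 25.8 and 28.5 in shSCR, and its log2 fold change was -1.20 ± 0.26 (edgeR adjusted p = 0.0444), so it fell. Markers of other cells also differed between the controls. Of the 10 skin fibroblast genes, Dcn, Dpt, Lum and Mfap5 fell, and Dcn alone went from 1238 and 1027 CPM in sgSCR to 491 and 550 in shSCR, while the other 9 genes summed to 902 and 856 CPM in sgSCR and 977 and 934 in shSCR. The macrophage gene Cd163 fell and the mesenchymal gene Nt5e rose, but the rest of each list was mixed. Of the macrophage genes, Cd68 and Mrc1 were also lower in both shSCR libraries than in both sgSCR libraries. Lyz2, Itgam, Ptprc, Cd14 and Ly6c2 were higher in both, and the other macrophage genes overlapped. Of the mesenchymal genes, Col1a1, Col1a2, Col3a1, Pdgfrb and Thy1 were lower in both shSCR libraries and Vim was higher. The part of these markers in these results was not tested. The median of the 72 was -0.23 beside -0.04 for all genes, and 45 of 72 were lower in shSCR.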

How the data were processed

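The 8 libraries were grouped by sample title. Per the submitters' processing notes, the authors used Trimmomatic and Salmon with build mm10. The sources used here do not give versions, options or the transcript index. Per the file headers, the deposited tables give an estimated count of reads and a TPM value for each of 116546 transcripts, and the authors' TPM is scaled by effective transcript length. Transcripts were joined to genes of GENCODE M21, leaving 569 unmatched (0.101 to 0.205% of reads), which were left out. Estimated counts were summed per gene and rounded, and TPM summed.

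Genes were kept by filterByExpr of edgeR 4.0.16 (minimum count 10, minimum total 15), scaled by TMM and tested by edgeR's quasi-likelihood test on 4 group means (4 residual degrees of freedom) in R 4.3.3, with Benjamini-Hochberg adjustment over 16309 genes and a threshold of 0.05. CPM values, log2 fold changes and standard errors come from that fit. The joint estimate used an additive model with 5 residual degrees of freedom. The procedure was tested on simulated data. Alternatives were DESeq2 1.42.0, RLE scaling, no filter, length-scaled counts, coding transcripts only, the 4 libraries of a comparison alone, the replicate number as a block, the high olfactory class (over 1000 CPM) and leaving out each library.

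The members, gene lists and tests were chosen with earlier results of these data known. Values in every library are given for members past the threshold in any comparison, for members with arms that do not overlap and an absolute log2 fold change of at least 1 in a Mif comparison, and for the most abundant member of each role by TPM; of the other pathway genes, those past the threshold or else the 2 with the smallest p are named. Further member values serve as examples. The marker lists of T or NK cells, B cells, keratinocytes, adipocytes, and neutrophils or mast cells summed to 2.37 to 82.2 CPM per library, with 0 genes called in any comparison of sgMif, shMif or the controls. Promoter sequences are from RefSeq on GRCm38.p6.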

Additional observations from a re-analysis of the deposited data

How the results depend on the processing

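RLE scaling and coding transcripts only left the count of members called in each comparison as reported, and no called member changed direction under any alternative. Calls rested on the tool and filter. Members called in sgMif against sgSCR numbered 1, beside 7 without the filter, 5 in DESeq2, 3 in the high olfactory class and 0 with length-scaled counts. For shMif against shSCR the 0 became 2 without the filter, 1 in DESeq2 and 2 in the high class. The difference of effects went from 0 to 4 without the filter, 2 in DESeq2 and 4 in the high class. For shSCR against sgSCR the 3 became 11 without the filter, 10 in DESeq2, 14 in the high class, 2 with the 4 libraries alone (Bmp4 and Grem1, both higher) and 0 with length-scaled counts. The joint estimate went from 0 to 3 without the filter and 1 in DESeq2. All-gene counts moved with these: from 161 to 1494 without the filter, 990 in DESeq2, 331 in the high class and 18 with length-scaled counts in sgMif; from 3 to 662, 175 and 835 (no filter, DESeq2, high class) in shMif; from 15 to 1306, 654 and 699 for the difference; from 655 to 2425, 1953 and 2386 between controls, with 312 for length-scaled counts and 142 for the 4 libraries alone; and from 0 to 549 and 280 (no filter, DESeq2) jointly. Without the filter, edgeR estimated an infinite prior degrees of freedom over 24467 genes, beside 4.09 over 16309 genes. The cause of the other changes was not tested.

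Leaving out 1 library gave 0 to 1 members in sgMif, 0 to 3 in shMif, 0 to 2 for the difference, 1 to 9 between controls, and 0 throughout for the joint estimate. In the high class only sgSCR keeps 2 libraries, so all spread within groups comes from that pair. There and in the fits that leave out 1 library, a group left with 1 library is assumed to vary like the others. The highest counts in shMif, the difference and the controls came without the second shSCR library, where 767, 515 and 1849 of all genes were called.

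With the replicate number as a block, 2 members passed in sgMif (Tgfbr3, and Grem1 at -2.66, adjusted p = 0.0479) and 2 between the controls, where Smad3 was lost (adjusted p = 0.0900). The other member counts stayed at 0. All-gene counts went from 161 to 263 in sgMif and from 655 to 210 between the controls. In shMif they went from 3 to 14, for the difference from 15 to 50, and jointly they stayed at 0. Deviations of same-numbered libraries correlated at 0.182 in the guide system and 0.263 in the hairpin system. The labels do not say what a number marks, and with 2 pairs per system these data do not settle whether equal numbers share a batch. In olfactory transcripts every first library was in the high class and 3 of the 4 second libraries in the low class.

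Genes with few reads (Bmp2, Bmp6, Nog, Gdf6, Smad6) are limited by depth, and 2 libraries a group limit the rest.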
